A study of Arabidopsis thaliana with 24 samples.

Results

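Transcripts of 10 genes that make or break down the hormone abscisic acid (ABA) were followed in whole Arabidopsis thaliana seedlings. They were picked by gene identifier from the 33612 genes of a table of read counts. They comprise 5 genes of the NCED family (NCED2, NCED3, NCED5, NCED6 and NCED9), ABA2, and CYP707A1 to CYP707A4. RNA sequencing was done on poly(A) RNA of seedlings aged 9 days. There were 3 biological replicates of each of 4 genotypes. These were pklpif4 (given in the labels as pkl-1pif4), pkl (allele pkl-1), pif4 (no allele named in the labels) and the wild type (WT). Their labels give continuous white light, with the number 28 in the library names, and no further agent or transgene. Tables named for continuous red light held identical counts, so it cannot be told which of these light conditions the values come from. The PKL protein remodels chromatin, and PIF4 is a transcription factor that promotes elongation growth. The comparisons ask which transcripts of ABA metabolism differ when either gene, or both, is mutated.

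ABA slows growth and germination, closes stomata and builds up under drought and in maturing seeds. Its level is set by synthesis against breakdown. The NCED dioxygenases cleave epoxycarotenoids in plastids to xanthoxin, the step held to limit synthesis, and the dehydrogenase ABA2 turns xanthoxin into abscisic aldehyde. The CYP707A enzymes are cytochrome P450 hydroxylases that start the main route of breakdown. The transcripts say nothing of the amounts of enzyme or hormone, which were not measured. In whole seedlings, fewer cells that express a gene and less RNA per cell cannot be told apart.

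Total counts per library were 37762216 to 56492669 over the 12 libraries. The PIF4 transcript was higher in libraries labelled with the pif4 mutation than in WT. It had 148 ± 1.09 CPM (counts normalised for library size, mean ± SD, n = 3) in pklpif4, 65.8 ± 2.97 in pkl, 174 ± 3.36 in pif4 and 100.4 ± 4.56 in WT. A count alone does not decide that label, so directions drawn from pif4-labelled and pklpif4-labelled libraries rest on the labels, and both are named by their label below. The PKL transcript was at 104 ± 2.64 CPM in pklpif4-labelled, 103 ± 4.03 in pkl and 97.3 ± 4.12 in WT libraries. Leaf mesophyll markers were abundant in all libraries, as the seedling label implies, with a summed level of 5 genes of 18790 to 27184 CPM. The 10 root markers summed to 160 to 164 CPM in pklpif4-labelled, 188 to 195 in pkl, 196 to 203 in pif4-labelled and 105 to 113 in WT libraries.

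In each mutant some ABA genes differed from WT, in both directions in pklpif4-labelled and pkl libraries and only downward in pif4-labelled ones. Of the 10 genes, 9 had enough counts to be tested with edgeR's quasi-likelihood test, fitted over 22130 genes (adjusted p threshold 0.05). In pklpif4-labelled libraries 3 members rose and 2 fell against WT, while 54.8% of all tested genes passed in that comparison, 27.2% higher and 27.7% lower. In pkl, 2 rose and 2 fell, against 53.6% of all tested genes called, 27.1% higher and 26.5% lower. The rises in pkl, of NCED9 and CYP707A3, numbered 1 with DESeq2 and with limma-trend and 0 without WT replicate 3. In pif4-labelled libraries 0 rose and 5 fell, against 32.5% of all tested genes called, 16.2% in either direction. With so many genes called, the counts in pklpif4-labelled and pkl libraries lay near the background. When scaled by library totals the members called were as many, but the higher share of all called genes was 62.0% in place of 50.5% in pkl and 61.2% in place of 50.0% in pif4-labelled libraries. The median log2 change of the 9 tested members was 0.20 in pklpif4-labelled, -0.02 in pkl and -0.89 in pif4-labelled libraries, beside medians over all tested genes of -0.00185 to 0.000599. Among the tested NCED genes, NCED2, NCED5 and NCED9 passed the filter on low counts with few libraries, NCED5 with 3 pklpif4-labelled libraries and 1 of WT and NCED9 with 3 pklpif4-labelled and 2 pkl libraries, so counts over tested members do not stand for the whole list.

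**Figure D1:**
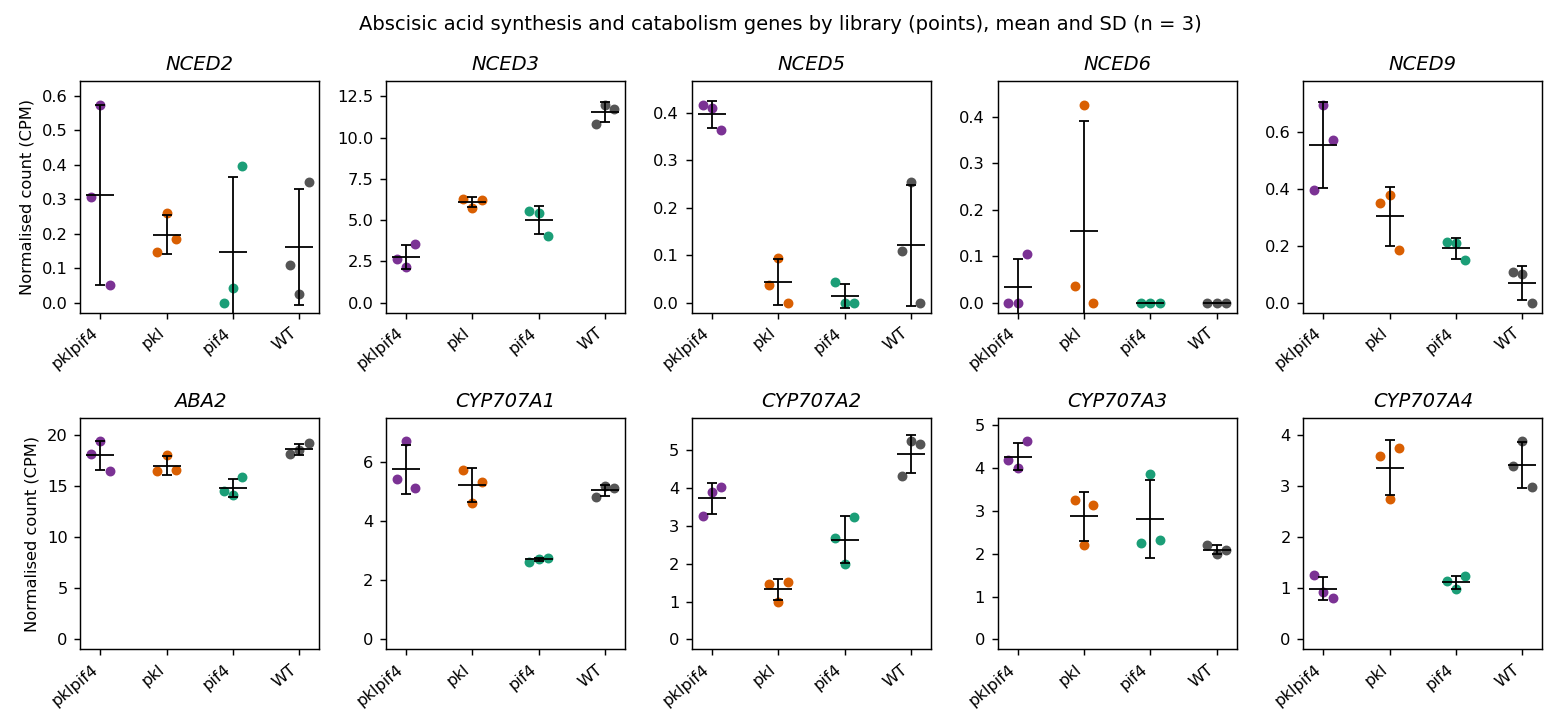
Normalised counts (CPM, linear axes that differ between panels) of the 10 genes in each of 12 libraries, with points for libraries and bars for mean and SD (n = 3), genotypes by their labels. NCED3 lay at 2.15 to 3.57 CPM in pklpif4-labelled libraries and at 10.9 to 11.99 CPM in WT, and CYP707A2 was lowest in pkl.

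NCED3 was the most abundant NCED transcript in every genotype and was lower than in WT in all 3 mutants. NCED3 (AT3G14440; chromosome 3, 4831288 to 4833599, minus strand, with exons that fill this span) encodes the dioxygenase best known for ABA synthesis under drought. It had 2.64, 2.15 and 3.57 CPM in the pklpif4-labelled libraries, 6.28, 5.75 and 6.23 in pkl, 5.56, 5.44 and 4.02 in the pif4-labelled libraries and 10.9, 11.99 and 11.8 in WT. No library of a mutant reached the WT range, and the pklpif4-labelled range lay below those of pkl and pif4. Against WT, the transcript fell 4.14-fold in pklpif4-labelled libraries (log2 -2.06 ± 0.14, ± SE; edgeR adjusted p = 6.99e-26). It fell 1.89-fold in pkl (log2 -0.92 ± 0.13; edgeR adjusted p = 5.5e-10) and 2.304-fold in pif4-labelled libraries (log2 -1.20 ± 0.13; edgeR adjusted p = 7.65e-14). The pklpif4-labelled libraries also lay below pkl (log2 -1.14 ± 0.14; edgeR adjusted p = 2.55e-11) and below the pif4-labelled ones (log2 -0.87 ± 0.15; edgeR adjusted p = 2.37e-07). The pkl effect with the pif4 label minus the pkl effect without it was 0.05 ± 0.19 on the log2 scale, with an approximate 95% interval of -0.33 to 0.43 (edgeR adjusted p = 0.879). A difference between backgrounds within that interval would not have been seen. NCED3 is known to be expressed in vascular tissue. Markers of phloem companion cells, SUC2 and AHA3, were lower in the mutants too, with summed levels of 212 to 227 CPM in pklpif4-labelled, 208 to 218 in pkl, 305 to 309 in pif4-labelled and 355 to 361 in WT libraries. The 5 xylem markers summed to 128 to 135, 112 to 115, 162 to 165 and 145 to 156 CPM in the same order of genotypes. Their part in the result was not tested.

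The other NCED genes had few counts, and the means of NCED9 and NCED5 were highest in the pklpif4-labelled libraries, for NCED9 without a passing difference from pkl. NCED9 (AT1G78390; chromosome 1, 29490895 to 29492875, minus strand) and NCED6 are known for ABA synthesis in seeds, and NCED5 acts with them in seed dormancy. NCED9 had 18, 34 and 22 counts in pklpif4-labelled, 19, 16 and 8 in pkl, 10, 10 and 6 in pif4-labelled and 6, 4 and 0 in WT libraries. All 9 mutant libraries lay above those of WT on the CPM scale. It rose to 0.555 ± 0.152 CPM in pklpif4-labelled libraries, against 0.0701 ± 0.0608 in WT (log2 2.85 ± 0.66; edgeR adjusted p = 0.000122). In pkl it rose to 0.305 ± 0.104 CPM (log2 1.99 ± 0.70; edgeR adjusted p = 0.012), a call lost without WT replicate 3 (log2 1.51, edgeR adjusted p = 0.0839). In pif4-labelled libraries it was at 0.191 ± 0.0367 CPM, and the difference from WT did not pass (edgeR adjusted p = 0.178). The pklpif4-labelled libraries lay above the pif4-labelled ones (log2 1.52 ± 0.56; edgeR adjusted p = 0.0189), a call lost without pif4-labelled replicate 3 (edgeR adjusted p = 0.0751) or pklpif4-labelled replicate 2 (edgeR adjusted p = 0.0994). Their difference from pkl did not pass (log2 0.85 ± 0.53; edgeR adjusted p = 0.2). NCED9 passed the filter on low counts with 3 pklpif4-labelled and 2 pkl libraries and 0 of pif4-labelled or WT. That selection favours the rises found in pklpif4-labelled and pkl libraries.

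NCED5 (AT1G30100; chromosome 1, 10571340 to 10573365, plus strand) had 19, 20 and 14 counts in pklpif4-labelled, 2, 4 and 0 in pkl, 2, 0 and 0 in pif4-labelled and 6, 10 and 0 in WT libraries. The pklpif4-labelled libraries did not overlap with those of any other genotype. Their ratio was 26.9-fold to the pif4-labelled libraries (exact 95% binomial interval 4.51 to 1121) and 9.29-fold to pkl (2.91 to 48.8). These intervals were taken on halved counts and cover counting error only. Both differences passed (edgeR adjusted p = 7.68e-05 against pif4-labelled and 0.00117 against pkl libraries). NCED5 passed the filter on low counts with 3 pklpif4-labelled libraries, 1 of WT and 0 of pkl or pif4-labelled. That selection favours rises in pklpif4-labelled libraries, so these p-values are no independent support for them. The fitted log2 change against pif4-labelled libraries was 4.51, and 7.16 without pif4-labelled replicate 1, the library with the counts of that group. Against pkl it was 3.13, and 4.12 without pkl replicate 2. Against WT the rise was log2 1.69 ± 0.71 (edgeR adjusted p = 0.0354). It was lost without WT replicate 1 (edgeR adjusted p = 0.107), WT replicate 3 (0.196) or any 1 of the pklpif4-labelled libraries (0.0621 to 0.085), with DESeq2 (adjusted p = 0.0899) and with no filter (edgeR adjusted p = 0.0903), and reached log2 2.61 without WT replicate 2. In pif4-labelled libraries the ratio to WT was 0.122-fold (exact 95% binomial interval 0.00276 to 0.912), which did not pass (edgeR adjusted p = 0.0639) but did without WT replicate 3 (0.0278) or pif4-labelled replicate 1 (0.0341). In pkl the ratio to WT was 0.354-fold (0.0604 to 1.47; edgeR adjusted p = 0.22).

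NCED2 (AT4G18350; chromosome 4, 10142650 to 10144445, plus strand) varied more within genotypes than between them. It had 14, 28 and 2 counts in pklpif4-labelled, 8, 11 and 8 in pkl, 0, 2 and 16 in pif4-labelled and 6, 1 and 13 in WT libraries. All groups overlapped, and the edgeR adjusted p against WT was 0.235 in pklpif4-labelled, 0.751 in pkl and 0.909 in pif4-labelled libraries. Without pif4-labelled replicate 3, the pklpif4-labelled libraries lay above the pif4-labelled ones (log2 3.75, edgeR adjusted p = 0.00441), against log2 1.21 and adjusted p = 0.175 with it. NCED6 (AT3G24220; chromosome 3, 8761434 to 8763172, plus strand) had too few counts to be tested in the main fit. It had 0, 0 and 4 counts in pklpif4-labelled and 2, 18 and 0 in pkl libraries, and 0 in all pif4-labelled and WT libraries. Its level in pkl was at least 3.14-fold that of WT when WT is set at a floor of 6 counts per group, but 18 of those 20 counts came from 1 library. Embryo transcripts were present beside these seed-type NCED genes. The 14 seed and embryo markers summed to 4205 to 4246 CPM in pklpif4-labelled, 66.3 to 71.8 in pkl, 58.6 to 60.2 in pif4-labelled and 53.5 to 55.4 in WT libraries, with SESA1 and SESA3 at 0 in the pif4-labelled and SESA1 and SESA4 at 0 in the WT libraries. Of these markers, 14 rose and 0 fell in pklpif4-labelled, 11 rose and 2 fell in pkl and 5 rose and 2 fell in pif4-labelled libraries, with medians of 6.91, 2.09 and 0.26 on the log2 scale. Whether the NCED9 and NCED5 counts come from the same cells was not tested.

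ABA2 (AT1G52340; chromosome 1, 19489794 to 19491648, minus strand) was the most abundant member, and it was lower than in WT in pif4-labelled libraries. It had 18.2, 19.4 and 16.5 CPM in pklpif4-labelled, 16.5, 18.1 and 16.6 in pkl, 14.5, 14.2 and 15.9 in pif4-labelled and 18.1, 18.5 and 19.2 in WT libraries. The pif4-labelled range lay below the other 3. It fell there by 0.33 ± 0.08 on the log2 scale against WT (edgeR adjusted p = 0.000385). The change was -0.04 ± 0.08 in pklpif4-labelled (edgeR adjusted p = 0.658) and -0.13 ± 0.08 in pkl libraries (edgeR adjusted p = 0.154). The pklpif4-labelled libraries were higher than the pif4-labelled ones (log2 0.28 ± 0.08; edgeR adjusted p = 0.00139). The 3′ end of ABA2 overlaps AT1G52330 on the other strand, which had 600 counts in all against 9213 for ABA2. Reads from the overlap may not have been told apart, since no strand setting of the counting is stated.

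The 4 hydroxylase genes followed 4 different patterns. CYP707A4 was low wherever the pif4 label stood, CYP707A1 was low in pif4-labelled libraries but not in pklpif4-labelled ones, CYP707A2 was lowest in pkl, and CYP707A3 was highest in pklpif4-labelled libraries. CYP707A4 (AT3G19270; chromosome 3, 6673727 to 6676520, minus strand) had 1.252, 0.923 and 0.808 CPM in pklpif4-labelled, 3.59, 2.75 and 3.74 in pkl, 1.13, 0.990 and 1.24 in pif4-labelled and 3.40, 3.87 and 2.97 in WT libraries. The values fell into a low and a high set that did not overlap, one with the pif4 mutation in the label and one without. Against WT it fell 3.43-fold in pklpif4-labelled (log2 -1.77 ± 0.23; edgeR adjusted p = 6.57e-11) and 3.04-fold in pif4-labelled libraries (log2 -1.61 ± 0.23; edgeR adjusted p = 2.32e-09). Against pkl it fell 3.38-fold in the pklpif4-labelled libraries (log2 -1.75 ± 0.23; edgeR adjusted p = 1.35e-10). The change in pkl against WT was -0.02 ± 0.20 (edgeR adjusted p = 0.941), with an approximate 95% interval of -0.42 to 0.38.

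CYP707A1 (AT4G19230; chromosome 4, 10521379 to 10523961, plus strand) is known to act in guard cells and in developing seeds. It had 5.43, 6.68 and 5.11 CPM in pklpif4-labelled, 5.71, 4.59 and 5.33 in pkl, 2.63, 2.72 and 2.75 in pif4-labelled and 4.81, 5.17 and 5.11 in WT libraries. The pif4-labelled libraries stood apart from the other 9, which overlapped. It fell 1.86-fold there against WT (log2 -0.89 ± 0.15; edgeR adjusted p = 7.95e-07). The pklpif4-labelled libraries were 2.13-fold higher than the pif4-labelled ones (log2 1.09 ± 0.15; edgeR adjusted p = 1.06e-09) and differed from WT by 0.20 ± 0.14 (edgeR adjusted p = 0.252). The 5 guard cell markers summed to 52.2 to 55.3 CPM in pklpif4-labelled, 56.6 to 62.7 in pkl, 72.7 to 73.8 in pif4-labelled and 69.6 to 71.9 in WT libraries. Their part in the result was not tested.

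CYP707A2 (AT2G29090; chromosome 2, 12494851 to 12499723, minus strand) is known for the drop in ABA of imbibed seeds. It had 3.25, 3.90 and 4.02 CPM in pklpif4-labelled, 1.45, 0.994 and 1.51 in pkl, 2.67, 1.98 and 3.23 in pif4-labelled and 4.32, 5.22 and 5.16 in WT libraries. The ranges of the 4 genotypes did not overlap. It fell 3.71-fold in pkl (log2 -1.88 ± 0.20; edgeR adjusted p = 6.66e-15) and 1.87-fold in pif4-labelled libraries (log2 -0.90 ± 0.18; edgeR adjusted p = 2.33e-05). The pklpif4-labelled libraries lay above pkl (log2 1.48 ± 0.20; edgeR adjusted p = 2.73e-10) and above the pif4-labelled ones (log2 0.51 ± 0.18; edgeR adjusted p = 0.0165). The call against pif4-labelled libraries was lost without pif4-labelled replicate 2 (log2 0.34, edgeR adjusted p = 0.171) or pklpif4-labelled replicate 2 (0.058) or 3 (0.0638). Against WT their change was -0.39 ± 0.18, just outside the threshold (edgeR adjusted p = 0.0506), and it passed in 8 of 20 alternatives, with halved counts (edgeR adjusted p = 0.0325) and with only the 2 groups (0.0298) among them. Without WT replicate 1 the adjusted p was 0.036 by edgeR, without any 1 of the 3 pkl libraries it was 0.0441 to 0.0486, and without pif4-labelled replicate 2 or 3 it was 0.0443 and 0.0494. The 5 mesophyll markers summed to 26498 to 27184 CPM in pklpif4-labelled, 18790 to 19314 in pkl, 22311 to 22600 in pif4-labelled and 24769 to 25187 in WT libraries, so pkl was lowest in both. Their part in the result was not tested.

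CYP707A3 (AT5G45340; chromosome 5, 18368642 to 18370991, minus strand) is known to lower ABA in vegetative tissue after stress or in humid air. It had 4.17, 3.998 and 4.61 CPM in pklpif4-labelled, 3.26, 2.202 and 3.14 in pkl, 2.25, 3.86 and 2.31 in pif4-labelled and 2.21, 1.99 and 2.08 in WT libraries. The pklpif4-labelled libraries lay above all others. Against WT they rose 2.04-fold (log2 1.02 ± 0.19; edgeR adjusted p = 2.66e-06). They were also above pkl (log2 0.56 ± 0.18; edgeR adjusted p = 0.00933), a call lost without pkl replicate 2 (edgeR adjusted p = 0.104). They were above the pif4-labelled libraries by 0.60 ± 0.19 (edgeR adjusted p = 0.00468), a call lost without pif4-labelled replicate 1 (edgeR adjusted p = 0.0606), while the difference was 0.90 without pif4-labelled replicate 2. The change in pkl was 0.46 ± 0.20 (edgeR adjusted p = 0.042), with ranges that overlapped at 1 library. It was lost without WT replicate 1, 2 or 3 (edgeR adjusted p = 0.0559, 0.101 and 0.078) and without pkl replicate 1 (0.19) or 3 (0.132), with DESeq2 (adjusted p = 0.0562), with limma-trend (adjusted p = 0.0619) and with only the 2 groups fitted (edgeR adjusted p = 0.0515). The pif4-labelled libraries differed from WT by 0.42 ± 0.20 (edgeR adjusted p = 0.0914), which passed without pif4-labelled replicate 1 (0.0364) or 3 (0.0466).

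**Figure D2:**
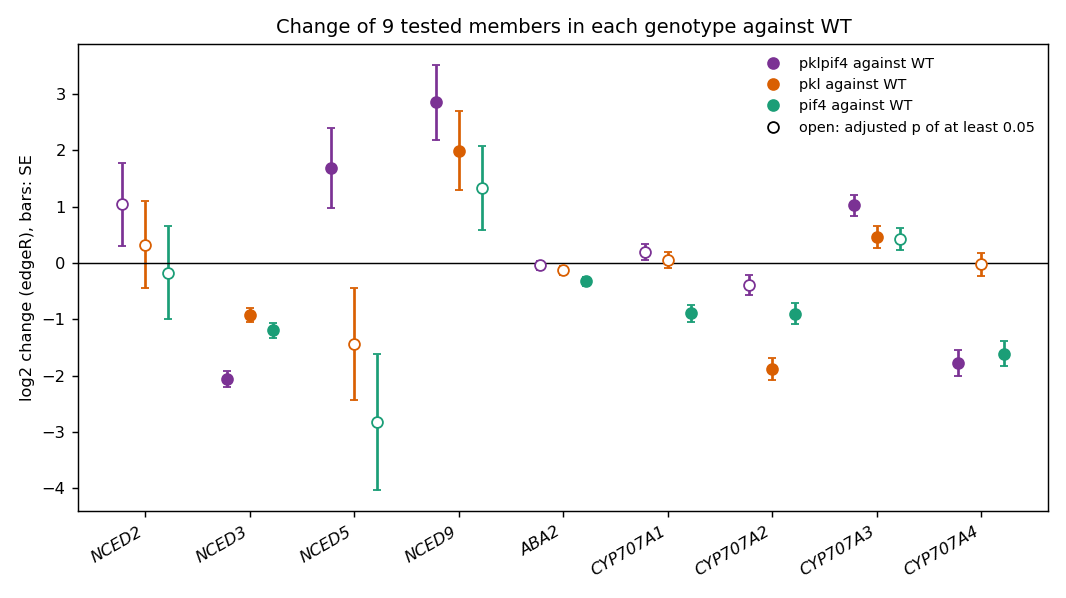
log2 change against WT of the 9 tested genes (y axis; edgeR estimate with SE bars) in pklpif4-labelled, pkl and pif4-labelled libraries, filled where the adjusted p was under 0.05. NCED3 was below 0 in all 3 comparisons (-2.06, -0.92 and -1.20), while CYP707A4 was below 0 with the pif4 label and at -0.02 in pkl.

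The 300 bases before the RefSeq start of each member were read for letters bound by factors tied to these mutants and to ABA. For several members this start differs from the gene position given above, which is that of the count table. These were the G-box CACGTG, bound by PIF and ABF factors, the PBE-box CACATG of PIF factors, the ABRE core ACGTG, which overlaps each G-box, and the RY core CATGCA, bound by seed factors such as ABI3. Both strands were read, in sequence from RefSeq (TAIR10.1). A G-box stood before 3 of 10 members (CYP707A1, CYP707A3 and NCED9) and before 7.09% of 27443 protein-coding genes. The PBE-box stood before NCED5 and before 13.1% of all genes. An ABRE core stood before 4 of 10 members, the 3 with a G-box and CYP707A4, and before 25.6% of all genes. The RY core stood before CYP707A1 and CYP707A3 and before 10.3% of all genes. NCED3, NCED2, NCED6, ABA2 and CYP707A2 held no match in this window. For NCED3 (minus strand) the window began at 4834016, while the gene as counted ended at 4833599. For NCED2 it ended at 10142254, while the gene as counted started at 10142650. The bases between were not read for these 2 genes. The 4 windows below are shown because CYP707A1 and CYP707A3 share an arrangement of these letters while their transcripts follow different patterns, and because CYP707A4 and NCED9 are the other members with a match whose changes passed in more than 1 genotype. Capitals mark the matches.
CYP707A1, chr4:10520959-10521258, plus strand: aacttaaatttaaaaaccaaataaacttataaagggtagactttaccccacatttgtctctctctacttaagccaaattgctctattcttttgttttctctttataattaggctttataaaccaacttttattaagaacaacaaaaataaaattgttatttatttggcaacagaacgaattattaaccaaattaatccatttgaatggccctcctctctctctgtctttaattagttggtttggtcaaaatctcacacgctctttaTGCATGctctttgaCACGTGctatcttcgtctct
CYP707A3, chr5:18371022-18371321, minus strand: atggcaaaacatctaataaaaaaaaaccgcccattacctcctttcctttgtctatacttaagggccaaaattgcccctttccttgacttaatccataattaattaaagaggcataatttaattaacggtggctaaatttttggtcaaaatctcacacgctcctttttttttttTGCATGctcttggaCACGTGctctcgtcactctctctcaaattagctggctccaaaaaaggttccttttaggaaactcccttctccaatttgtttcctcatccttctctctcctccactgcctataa
CYP707A4, chr3:6676522-6676821, minus strand: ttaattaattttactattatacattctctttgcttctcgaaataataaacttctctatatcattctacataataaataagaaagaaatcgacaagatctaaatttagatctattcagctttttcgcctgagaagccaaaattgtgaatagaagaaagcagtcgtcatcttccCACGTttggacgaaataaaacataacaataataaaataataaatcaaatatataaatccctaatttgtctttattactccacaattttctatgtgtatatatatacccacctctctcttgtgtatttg
NCED9, chr1:29492876-29493175, minus strand: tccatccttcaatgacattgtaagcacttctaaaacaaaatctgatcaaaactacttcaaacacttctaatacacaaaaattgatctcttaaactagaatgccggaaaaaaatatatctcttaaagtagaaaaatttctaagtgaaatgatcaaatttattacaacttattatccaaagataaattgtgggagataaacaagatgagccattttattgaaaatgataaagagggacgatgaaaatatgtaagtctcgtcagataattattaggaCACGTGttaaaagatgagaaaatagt
Before CYP707A1 the G-box lay 20 to 15 bases ahead of the RefSeq start, and before CYP707A3 it lay 113 to 108 bases ahead. Both RefSeq starts lie upstream of the counted genes, which begin at 10521379 for CYP707A1 and 18370991 for CYP707A3. The 2 distances therefore depend on the annotation, and their contrast is not a result. In both, TGCATG, the RY core on the other strand, came 8 bases before the G-box, and the 2 windows shared a run of 23 bases, tttggtcaaaatctcacacgctc. A match is a description of letters and not a site.

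The pkl effect depended on the background for 4 of 9 tested members, in the positive direction, while 31.9% of all tested genes passed in the same test, 15.3% with a positive and 16.5% with a negative one. CYP707A2 fell by 1.88 on the log2 scale in pkl against WT, while it rose by 0.51 in pklpif4-labelled against pif4-labelled libraries. The difference of these effects was 2.39 ± 0.27 (edgeR adjusted p = 6.14e-13). For CYP707A1 the pkl effect was 1.09 in the pif4-labelled background and 0.06 in WT, a difference of 1.04 ± 0.21 (edgeR adjusted p = 2.76e-05). For ABA2 the difference was 0.41 ± 0.11 (edgeR adjusted p = 0.00158). For NCED5 it was 5.95 ± 1.46 (edgeR adjusted p = 0.000564), a value that rests on 6 counts in pkl and 2 in pif4-labelled libraries. It was 3.66 with limma-trend, and 5.03 (without WT replicate 2) to 8.60 (without pif4-labelled replicate 1) with 1 library left out. NCED5 passed the filter on low counts through pklpif4-labelled and WT libraries, which favours a positive difference, so its sign is no support for the count above. NCED3, CYP707A4, CYP707A3, NCED9 and NCED2 did not pass, with adjusted p from 0.598 to 0.879 by edgeR. Between pklpif4-labelled and pkl libraries 3 members rose and 2 fell, against 39.9% of all tested genes called, 19.5% higher and 20.5% lower. Between pklpif4-labelled and pif4-labelled libraries 6 rose and 1 fell, against 50.2% of all tested genes called, 25.5% higher and 24.7% lower. NCED5 and NCED9, among the 6, passed the filter with 3 pklpif4-labelled and 0 pif4-labelled libraries, so they are no support for this count. NCED5 is also among the 3 that rose against pkl, where the same limit holds. These comparisons share the pklpif4-labelled libraries.

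**Figure D3:**
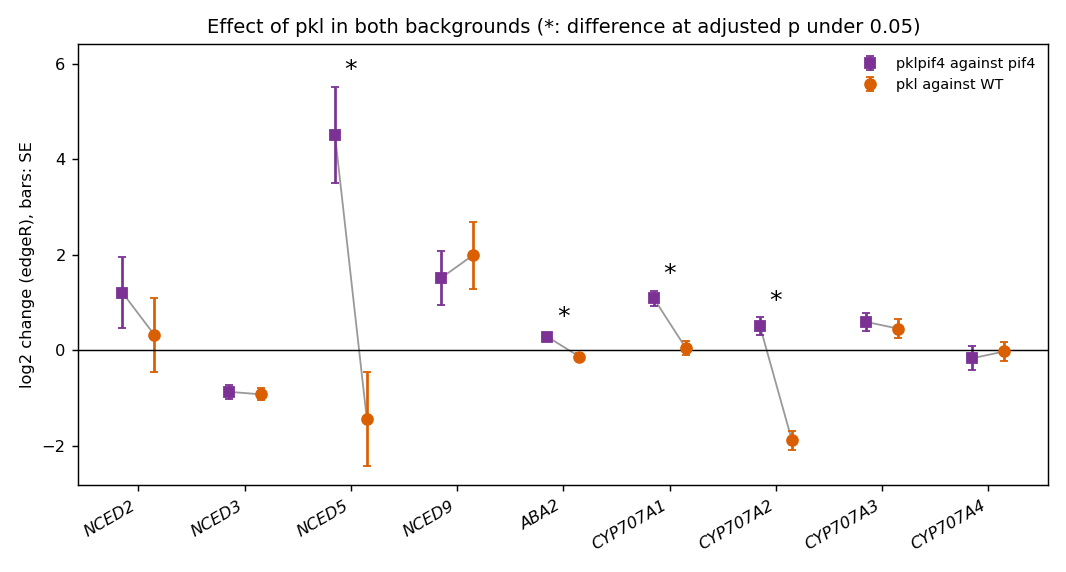
log2 effect of pkl (y axis; edgeR estimate with SE bars) in pklpif4-labelled against pif4-labelled libraries (squares) and in pkl against WT (circles) for the 9 tested genes. Asterisks mark NCED5, ABA2, CYP707A1 and CYP707A2, whose effects differed at an adjusted p under 0.05, and CYP707A2 lay at 0.51 and -1.88.

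Levels can be set side by side between genes only per length, for which the deposited FPKM (counts scaled by exon length and library total) were used. ABA2 led in every genotype, at 15.1 ± 1.24 FPKM in pklpif4-labelled, 14.8 ± 0.762 in pkl, 12.6 ± 0.753 in pif4-labelled and 15.4 ± 0.474 in WT libraries. NCED3 came next in WT at 4.88 ± 0.254 FPKM, ahead of CYP707A1 (2.47 ± 0.0934), CYP707A2 (2.43 ± 0.249), CYP707A4 (1.98 ± 0.258) and CYP707A3 (1.08 ± 0.0575). The ranges of CYP707A1 and CYP707A2 overlapped there, as did those of CYP707A2 and CYP707A4. In pklpif4-labelled libraries NCED3 was the fifth of the 10, at 1.20 ± 0.308 FPKM, below CYP707A1 (2.86 ± 0.422), CYP707A3 (2.22 ± 0.163) and CYP707A2 (1.87 ± 0.210), and the ranges of these neighbours did not overlap. In pkl, NCED3 (2.70 ± 0.130) and CYP707A1 (2.68 ± 0.292) overlapped. In pif4-labelled libraries NCED3 (2.17 ± 0.373), CYP707A3 (1.48 ± 0.483), CYP707A1 (1.36 ± 0.0320) and CYP707A2 (1.33 ± 0.316) each overlapped with the next. The 4 other NCED genes stayed at or below a mean of 0.278 FPKM in every genotype.

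The make-up of both families differed between genotypes. Summed over the NCED genes, the level was 1.86 ± 0.201 FPKM in pklpif4-labelled, 3.08 ± 0.112 in pkl, 2.36 ± 0.276 in pif4-labelled and 5.06 ± 0.267 in WT libraries. NCED3 made up 63.8 ± 11.2% of this sum in pklpif4-labelled, 87.7 ± 6.98% in pkl, 91.7 ± 5.42% in pif4-labelled and 96.4 ± 0.118% in WT libraries. The summed CYP707A level was 7.53 ± 0.364 FPKM in pklpif4-labelled, 6.95 ± 1.06 in pkl, 4.84 ± 0.260 in pif4-labelled and 7.96 ± 0.392 in WT libraries. Within it, CYP707A4 made up 7.81 ± 2.06% in pklpif4-labelled, 29.4 ± 0.914% in pkl, 13.8 ± 1.76% in pif4-labelled and 24.9 ± 2.58% in WT libraries. CYP707A3 made up 29.6 ± 3.02%, 22.1 ± 1.24%, 30.4 ± 8.95% and 13.6 ± 1.37% in the same order. The summed CYP707A level divided by the summed NCED level was 4.25, 4.42 and 3.57 in pklpif4-labelled, 2.47, 1.79 and 2.53 in pkl, 1.79, 2.01 and 2.44 in pif4-labelled and 1.5997, 1.59 and 1.52 in WT libraries. All mutant libraries were above WT and the pklpif4-labelled ones above the rest. These sums are descriptions and carry no test.

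**Figure D4:**
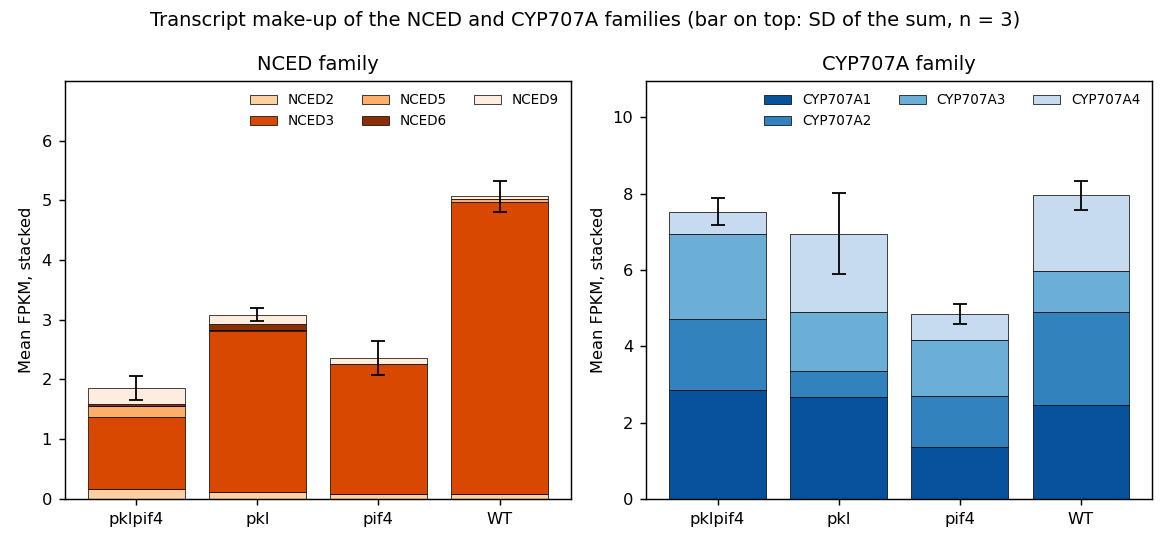
Mean FPKM of each NCED gene (left) and each CYP707A gene (right), stacked, by genotype label, with the SD of the sum (n = 3). The NCED sum was 1.86 FPKM in pklpif4-labelled and 5.06 in WT libraries, while the CYP707A sum was 7.53 and 7.96 FPKM.

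Genes before and after these steps were read from lists, and each change named with its SE below passed the edgeR test. Named are up to 2 genes in each direction per comparison with WT, those with the largest change. A gene not named for a genotype may have passed there too. Their counts stand against 54.8% of all tested genes called in pklpif4-labelled (27.2% higher, 27.7% lower), 53.6% in pkl (27.1% and 26.5%) and 32.5% in pif4-labelled libraries (16.2% and 16.2%). With these shares, the counts are descriptions of the lists. The first list held 14 genes of carotenoid metabolism, not all of them on the way to the epoxycarotenoid substrates. In pklpif4-labelled libraries 5 rose and 7 fell, in pkl 1 rose and 11 fell, and in pif4-labelled libraries 3 rose and 6 fell. The medians were -0.10, -0.29 and -0.09 on the log2 scale, in that order. In pkl the falls were led by ABA4, needed for neoxanthin (log2 -0.73 ± 0.07), and the lycopene cyclase gene LUT2 (-0.64 ± 0.04), and the hydroxylase gene BCH1 rose (0.10 ± 0.04). In pklpif4-labelled libraries the hydroxylase genes BCH2 (0.55 ± 0.04) and LUT5 (0.29 ± 0.03) rose, while the violaxanthin de-epoxidase gene NPQ1 (-0.30 ± 0.04) and ABA4 (-0.30 ± 0.07) fell. In pif4-labelled libraries NPQ1 (0.20 ± 0.04) and LYC (0.12 ± 0.04) rose, and BCH2 (-0.40 ± 0.05) and the zeaxanthin epoxidase gene ABA1 (-0.29 ± 0.02) fell. Of 5 genes of the last step, 2 rose and 1 fell in pklpif4-labelled, 4 rose and 0 fell in pkl, and 2 rose and 2 fell in pif4-labelled libraries. AAO3, the aldehyde oxidase gene that makes ABA, fell in pklpif4-labelled (-0.40 ± 0.05) and pif4-labelled libraries (-0.37 ± 0.05). Its relatives AAO1 and AAO2 rose in pklpif4-labelled (1.42 ± 0.04 and 0.85 ± 0.05), pkl (1.08 ± 0.04 and 0.59 ± 0.05) and pif4-labelled libraries (0.42 ± 0.04 and 0.24 ± 0.06). AAO4 was sparse and fell in pif4-labelled libraries, with 8 counts against 49 in WT. Of 4 cleavage dioxygenase genes outside the NCED group 3 were tested, and 0 rose and 2, CCD1 and CCD4, fell in each comparison with WT, CCD4 by 0.59 ± 0.05, 0.22 ± 0.05 and 0.48 ± 0.05 in pklpif4-labelled, pkl and pif4-labelled libraries and CCD1 by 0.15 ± 0.02, 0.30 ± 0.02 and 0.13 ± 0.02.

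Of 14 genes for ABA conjugation and transport, 4 rose and 8 fell in pklpif4-labelled, 7 rose and 2 fell in pkl and 2 rose and 7 fell in pif4-labelled libraries, beside 54.8%, 53.6% and 32.5% of all tested genes called. BGLU18, a glucosidase that frees ABA from its glucose ester, fell to 12.6 ± 2.197 CPM in pklpif4-labelled libraries, against 66.1 ± 2.59 in WT (log2 -2.39 ± 0.06; edgeR adjusted p = 3.55e-38). The transporter gene ABCG22 fell in pklpif4-labelled (-1.41 ± 0.04) and pkl libraries (-1.37 ± 0.04), as did BGLU33 in pkl (-0.39 ± 0.05). The importer gene ABCG30 rose in pklpif4-labelled (1.15 ± 0.06), pkl (1.02 ± 0.06) and pif4-labelled libraries (0.52 ± 0.07). The glucosyltransferase gene UGT71B6 rose in pkl (0.92 ± 0.14) and fell in pif4-labelled libraries (-0.92 ± 0.16), where ABCG40 fell (-0.81 ± 0.15) and UGT71C5 rose (0.31 ± 0.06). UGT71B8 had 101 counts in pklpif4-labelled and 0 in WT libraries, at least 16.7-fold higher with WT at the floor of 6 counts per group. It stands beside its similar neighbour UGT71B6, so its count is uncertain.

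The counts of receptor, phosphatase, kinase and response genes stand beside 54.8% (pklpif4-labelled), 53.6% (pkl) and 32.5% (pif4-labelled) of all tested genes called. Of 14 receptor genes of the PYR/PYL family 9 were tested, and 5 rose and 1 fell in pklpif4-labelled, 6 rose and 0 fell in pkl and 7 rose and 1 fell in pif4-labelled libraries. PYL6 rose in all 3 (2.22 ± 0.34, 2.00 ± 0.34 and 1.53 ± 0.35 in that order). Also among the 2 largest rises were PYL4 in pklpif4-labelled (1.11 ± 0.05), PYL5 in pkl (0.90 ± 0.06) and PYL2 in pif4-labelled libraries (0.94 ± 0.35). As only the 2 largest are named, these rises cannot be taken as particular to those genotypes. PYL7 fell in pklpif4-labelled (-0.51 ± 0.06) and pif4-labelled libraries (-0.60 ± 0.06). Among 9 clade A phosphatase genes, which the receptors inhibit, 3 rose and 6 fell in pklpif4-labelled, 3 rose and 5 fell in pkl and 1 rose and 7 fell in pif4-labelled libraries. AHG1, a phosphatase of seeds, rose to 13.8 ± 0.906 CPM in pklpif4-labelled libraries, against 0.0942 ± 0.0907 in WT, and rose in pkl (2.17 ± 0.42) and pif4-labelled libraries (1.54 ± 0.46). HAI3 rose in pklpif4-labelled (4.284 ± 0.29) and pkl libraries (1.86 ± 0.33). HAI1 fell in pklpif4-labelled (-1.36 ± 0.08) and pif4-labelled libraries (-1.26 ± 0.08), AHG3 in pklpif4-labelled (-0.79 ± 0.05) and pkl libraries (-0.81 ± 0.05), and HAI2 in pkl (-1.86 ± 0.31) and pif4-labelled libraries (-1.44 ± 0.30). All 9 phosphatase genes passed in pklpif4-labelled libraries, HAI2 among them, though outside the 2 largest changes in each direction. Of the 3 SnRK2 kinase genes, 1 rose in pklpif4-labelled, 2 in pkl and 1 in pif4-labelled libraries, and 0 fell. Of 19 response genes, 5 rose and 11 fell in pklpif4-labelled, 6 rose and 8 fell in pkl and 1 rose and 16 fell in pif4-labelled libraries, with medians of -0.38, -0.10 and -0.52 on the log2 scale. In pklpif4-labelled libraries LEA4-5 (5.29 ± 0.08) and RAB18 (3.61 ± 0.04) rose, and NAC019 (-4.16 ± 0.33) and COR15B (-1.83 ± 0.65) fell. In pif4-labelled libraries LEA4-5 rose (0.61 ± 0.11) and NAC019 (-3.02 ± 0.29) and COR15A (-1.76 ± 0.27) fell. In pkl LEA4-5 (0.62 ± 0.11) and the dehydrin gene XERO2 (0.56 ± 0.14) rose, and KIN1 (-3.32 ± 0.59) and HB12 (-1.25 ± 0.07) fell. COR15A and COR15B, like KIN1 and KIN2, are neighbouring similar copies whose separate counts are uncertain.

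Transcription factor genes of the ABA response and of ABA metabolism moved in both directions. Of 7 ABF and ABI genes, 3 rose and 4 fell in pklpif4-labelled, 2 rose and 2 fell in pkl and 1 rose and 3 fell in pif4-labelled libraries, beside the same 54.8%, 53.6% and 32.5% of all tested genes. ABI3 rose in pkl (1.75 ± 0.13) and in pif4-labelled libraries (1.31 ± 0.14). In pklpif4-labelled libraries all 7 genes passed, ABI3 among them, but only the 2 largest changes in each direction are named. ABI5 rose in pklpif4-labelled (4.82 ± 0.17) and pkl libraries (1.41 ± 0.20). ABI4 had 190 counts in pklpif4-labelled and 2 in WT libraries, a ratio of 94.2-fold (exact 95% binomial interval 16.5 to 3760). ABF3, a factor of vegetative tissue, fell in pklpif4-labelled (-0.47 ± 0.03), pkl (-0.66 ± 0.03) and pif4-labelled libraries (-0.49 ± 0.03). Of 9 genes listed as regulators of the members 7 were tested, and 3 rose and 2 fell in pklpif4-labelled, 1 rose and 4 fell in pkl and 1 rose and 2 fell in pif4-labelled libraries. SOM, a seed gene that acts on ABA metabolism downstream of PIF1, rose in pklpif4-labelled (3.77 ± 0.12), pkl (1.09 ± 0.13) and pif4-labelled libraries (0.48 ± 0.14). WRKY57 and ATAF1, known to bind the NCED3 promoter, fell in pklpif4-labelled (-1.005 ± 0.11 and -0.35 ± 0.03) and pif4-labelled libraries (-0.73 ± 0.10 and -0.38 ± 0.03). PIF1 itself rose in pklpif4-labelled (0.34 ± 0.05) and fell in pkl libraries (-0.26 ± 0.05), where the dormancy gene DOG1 fell too (-0.70 ± 0.30).

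For each of the 6 members with a mean of at least 1 CPM, the genes with the most similar pattern over the 12 libraries were sought among 19385 others, by Pearson's correlation of log2 CPM. The libraries fall into 4 genotypes, so the values describe these groups. Closest to NCED3 were AT4G22190 (r = 0.99), AT3G60180 (0.98) and CHC1 (0.98). For CYP707A4 they were AMY1 (0.98), AT3G51660 (0.98) and BCDH BETA1 (0.98). For CYP707A2 they were G6PD1 (0.97), TRX-M4 (0.97) and TLP18.3 (0.96). For CYP707A1 they were PECT1 (0.97), CSD2 (0.96) and OSM34 (0.95), for CYP707A3 EMB2765 (0.95), AT5G59740 (0.94) and AT1G29820 (0.93), and for ABA2 AT1G01240 (0.91), FBP (0.91) and AT3G19540 (0.91).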

How the data were processed

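The tools named in the submitters' processing notes were fastp, HISAT2 2.1.0 and SAMtools 1.6 with build TAIR10. What counted the reads, and on which strand, is not given in the sources used here. Deposited by the authors were raw counts per gene, with exon positions, and FPKM, which were recomputed from the counts to within 4.35e-07. Tables named for continuous red light held the same 403344 counts (0 differed) and were not used (24 columns), so growth conditions were not compared. Low counts were mostly even (70.9% to 74.3% of counts of 1 to 8, the pattern of pairs counted per read), so a floor of 6 counts, or 3 fragments, per group was set.

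Counts were tested in edgeR 4.0.16 (R 4.3.3) with TMM factors, filterByExpr (minimum count 10, minimum total 15), 1 model of group means over the 12 libraries, the robust quasi-likelihood test, two-sided, and Benjamini-Hochberg adjustment over 22130 genes. The SE is the size of a log2 change divided by the square root of F. The fit was tested on simulated data. The interaction is pklpif4 minus pif4, less pkl minus WT. Alternatives used DESeq2 1.42.0, limma 3.58.1, other factors, filters and libraries. The 151 listed genes were all found in the count table and in the RefSeq table (TAIR10.1). Of 113561 internal exons in the count table, 95.37% had the same positions in TAIR10.1, from which upstream sequence was read.

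Members and lists were chosen with earlier results of these data known. All 10 members are named. From other lists, genes named are up to 2 in each direction per comparison with WT, those with the largest change past the threshold, and genes chosen later for their sequence or role are named with their values. Replicates are called biological, but nothing names separate cultures, so p-values measure the spread between these libraries. Depth was 37762216 to 56492669 counts per library. The exact binomial intervals were taken on counts halved and rounded up, to allow for pairs counted per read. Those intervals and the floors cover counting error only.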

Additional observations from a re-analysis of the deposited data

Results flagged for a closer look

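For 4 of the 9 tested members the pkl effect with the pif4 label differed from that without it by a test of the difference (edgeR). The difference was 2.39 on the log2 scale for CYP707A2, 1.04 for CYP707A1, 0.41 for ABA2 and 5.95 for NCED5. CYP707A2 had the opposite sign in the 2 backgrounds, with 0.51 in pklpif4-labelled against pif4-labelled libraries and -1.88 in pkl against WT. The value of NCED5 rests on sparse counts. Since 31.9% of all tested genes passed the same test, this count is not particular to these genes.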

How the results depend on the processing

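Over 21 alternatives, 12 of them with 1 library left out, 1023 values of single members kept their direction and side of the threshold or stayed uncalled, 23 lost a call, 13 gained one and 0 called values turned round. The calls of NCED3, CYP707A4 and CYP707A1 against WT, and the interactions of CYP707A2, CYP707A1, ABA2 and NCED5, passed under each alternative in which they were tested. With halved counts, which allow for pairs counted per read, 6 members were tested. NCED2, NCED5 and NCED9 were not among them, so their calls were not checked in that setting. With no filter 10 members were tested, and 5 were called in pkl against WT, 3 of them higher. NCED6 was among these 3, with 18 of its 20 pkl counts in 1 library. When a mean of 5 CPM was required, 2 members remained testable, and members called numbered 1 in pkl, 2 in pif4-labelled and 1 in pklpif4-labelled libraries against WT, 1 in pklpif4-labelled against pkl, 2 in pklpif4-labelled against pif4-labelled libraries and 1 for the interaction. With only the 2 groups compared, 2 members were called in pkl: 6 were tested, NCED9 not among them, and CYP707A3 lost its call (edgeR adjusted p = 0.0515). Leaving out 1 library in turn gave 2 to 4 members called in pkl, 5 to 7 in pif4-labelled and 4 to 6 in pklpif4-labelled libraries against WT, 4 to 5 in pklpif4-labelled against pkl, 5 to 7 in pklpif4-labelled against pif4-labelled libraries and 4 for the interaction each time. Without WT replicate 3, 2 were called in pkl and 0 of them higher. Same-numbered libraries did not deviate together (correlations -0.03 to 0.02 over 18 pairs), so the numbers do not pair samples, and the fit with a replicate block called 4, 5, 5, 5, 7 and 4 members, the same counts as without it. Library totals in place of TMM factors moved the median of all genes by at most 0.08 (log2). With them, the share of higher genes among all called was 62.0% in place of 50.5% in pkl, 61.2% in place of 50.0% in pif4-labelled libraries, 37.4% in place of 48.8% in pklpif4-labelled against pkl and 31.1% in place of 48.1% for the interaction. Depth limits NCED2, NCED5, NCED6 and NCED9, at 24 to 153 counts over 12 libraries.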

Other observations

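The arrangement seen before CYP707A1 and CYP707A3, TGCATG followed after 8 bases by CACGTG, was looked for in all upstream windows after it was noticed, on both strands. It stood before 9 of 27443 protein-coding genes. Besides these members they were the seed albumin genes SESA1, SESA3 and SESA4, DSI-1VOC, LSU3, AT1G17610 and AT2G31985. SESA1 had 18.4 ± 1.22 CPM in pklpif4-labelled and 0.580 ± 0.219 in pkl libraries and 0 counts in pif4-labelled and WT libraries. SESA3 had 7.73 ± 0.751 CPM in pklpif4-labelled, 0.346 ± 0.121 in pkl and 0.0170 ± 0.0294 in WT libraries, with 0 counts in pif4-labelled ones. The SESA genes are similar neighbours, so their separate counts are uncertain. With these neighbours, and the run of 23 bases shared by the CYP707A1 and CYP707A3 windows, the 9 genes may not be independent occurrences. DSI-1VOC had 8.06 ± 1.35 CPM in pklpif4-labelled, 0.866 ± 0.172 in pkl, 0.440 ± 0.152 in pif4-labelled and 0.0981 ± 0.128 in WT libraries. LSU3 was lower in pklpif4-labelled libraries, with 0.916 ± 0.149 CPM against 1.54 ± 0.195 in WT (log2 -0.75 ± 0.27; edgeR adjusted p = 0.012). AT2G31985 had 2.09 ± 0.0540 CPM in pklpif4-labelled, 0.347 ± 0.0797 in pkl, 0.0662 ± 0.115 in pif4-labelled and 0.1001 ± 0.0630 in WT libraries. SESA4 had 0.709 ± 0.269 CPM in pklpif4-labelled, 0.299 ± 0.0926 in pkl and 0.0306 ± 0.0268 in pif4-labelled libraries and 0 counts in WT. AT1G17610 had 1.08 ± 0.277 CPM in pklpif4-labelled libraries, against 0.682 ± 0.215 in WT (edgeR adjusted p = 0.154). The genes were picked by letters alone, and no test was made of the group.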
